A study of Mus musculus with 14 samples.

Results

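The genes described here are 41 interferon-stimulated genes of the mouse small intestine. They form a known family and were chosen from measured values of these arrays, taken here to be the log2 signals of the adult villi and crypts, so their values in that comparison are a description and carry no test. Whether E12 values also entered the choice is not recorded. A gene counted as measured where a probe set, the group of short probes that reports 1 transcript, was annotated to its symbol and to no other. That left 35 of the 41 genes, read by 45 probe sets, out of 12394 genes in all. Isg15, Gbp4 and Tgtp1 shared their only probe sets with other symbols, and Ddx58, Ifi44 and Xaf1 matched no probe set, so these 6 genes have no value here.

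The arrays compared 4 kinds of tissue to follow gene regulation along the axis from crypt to villus. Villi, the projections covered mainly by absorptive enterocytes, came from 3 samples of C57BL/6 mice aged 12 weeks and are numbered 12, 41 and V275. Crypts, the pockets that hold the stem and dividing cells, came from 3 samples of mice of the same strain and age, numbered 12, 21 and 41. E12 endoderm is the inner layer of the gut at embryonic day 12, dissected after collagenase digestion, in 3 pools of 10 to 12 fetuses and 1 pool of 35 fetuses. E12 mesenchyme is the outer layer of the same intestine, in pools of the same sizes. No group carried a stated mutation or treatment, and no strain is stated for the fetuses in the labels. Nothing states whether a villus and a crypt sample with the same number came from the same mouse, so a p-value measures only the spread between these samples. The values are log2 RMA signals in 2 tables that were normalized apart. The 8-array table holds the adult samples and the pair of 35-fetus pools, and the 6-array table holds the other E12 pools. The 30th percentile of an array's signals lay between 5.71 and 5.88 in the first table and between 4.70 and 4.78 in the second, and a signal under it is near background. The labelled tissues carried their markers. All 7 measured villus enterocyte markers were higher in villi than in crypts and 6 of 8 crypt markers were lower, and all 7 epithelium markers were higher and all 7 mesenchyme markers lower in E12 endoderm than in E12 mesenchyme.

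Interferons are secreted proteins that warn cells of infection. They bind receptors on the cell surface, the receptors activate JAK kinases, and the kinases phosphorylate STAT proteins that enter the nucleus and switch on the interferon-stimulated genes. Type I and type III interferons act mainly through a complex with STAT2 and IRF9 that binds the interferon-stimulated response element. In the intestine, interferon lambda, the type III form, is known for acting on epithelial cells, and many of these genes encode proteins that degrade viral RNA, block its translation or mark infected cells.

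In adult villi, many of these genes stood above their level in crypts, and none lay clearly below it. The villus arrays were higher than the crypt arrays without overlap for 20 of the 35 genes, where 22.2% of all measured genes did the same, and lower without overlap for 0 genes, where the share over all genes was 21%. The median villus minus crypt difference was 1.17 on the log2 scale for the 35 genes and 0.005 over all genes. At least 2-fold higher in villi were 19 of the 35 genes and 9.09% of all measured genes. The limma fit over all genes tested 31 of the 35 and called 16 higher and 0 lower. Of all tested genes it called 16.9% higher and 15.0% lower. At an unadjusted p under 0.05 it found 1 lower, Isg20. Without crypt replicate 12 it called 10 of the 35 higher. Since the genes were chosen with this difference known, nothing is read from these counts. In whole tissue, fewer cells that express a gene and less RNA per cell cannot be told apart.

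**Figure D1:**
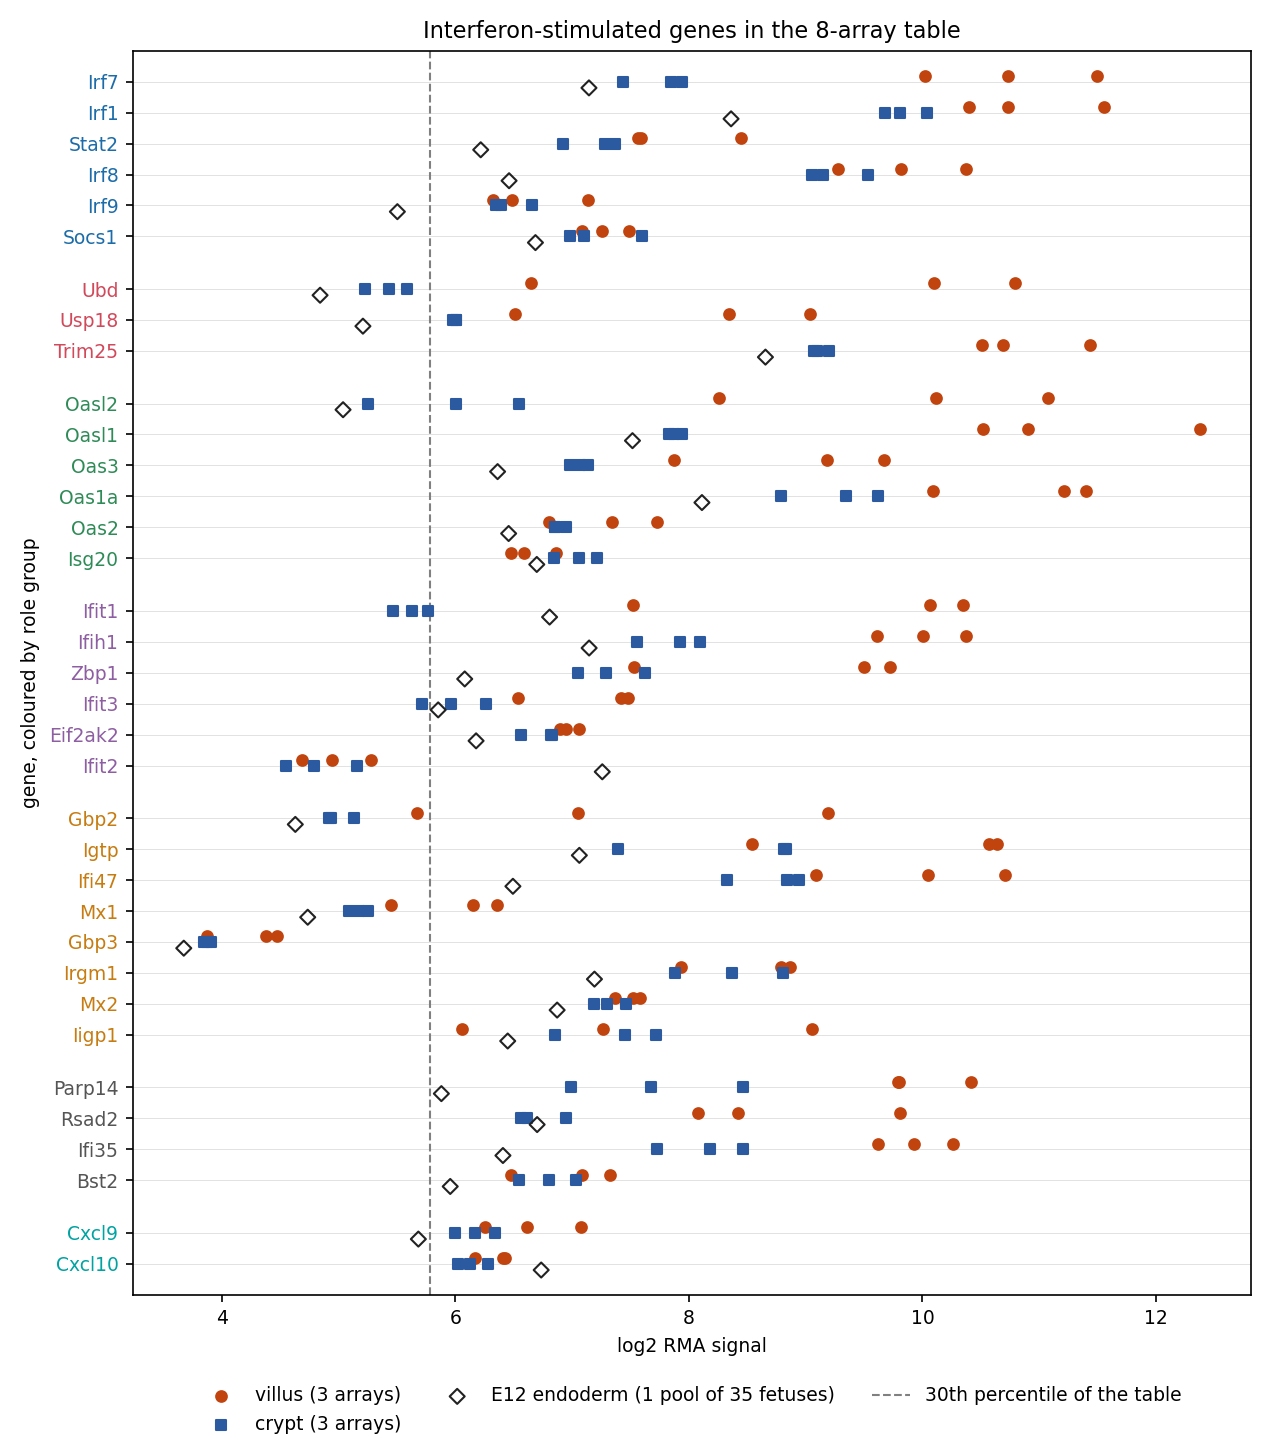
Each row is a gene, coloured by its role group, and each mark is the log2 RMA signal of 1 array of the 8-array table, with circles for the 3 villus arrays, squares for the 3 crypt arrays, diamonds for the single E12 endoderm pool of 35 fetuses, and a dashed line at the 30th percentile of the table (5.78). The villus marks are spread more widely than the crypt marks in most rows, and for Oasl2, Ubd, Ifit1, Oasl1 and Irf7 they stand at least 8-fold above the crypt marks on average.

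Many promoters of the family hold the letters of the interferon-stimulated response element, shown here because it is the element the complex with STAT2 and IRF9 is known to bind. The search used the core of this element, GAAA, any 2 bases and GAAA again, on both strands, so that a core on the other strand reads TTTC, 2 bases and TTTC. It ran in RefSeq windows of GRCm38.p6 that reach from 250 bases before to 50 bases after a gene's annotated start. Of the 41 genes, 33 had a window, and 18 of these 33 (54.5%) held the core, against 3.99% of the 27025 genes with a window (3.44% of 32851 windows). Cores may overlap one another by the 4 bases they share, and each was counted. Iigp1, Parp14, Oas2, Zbp1, Mx1, Mx2, Gbp4 and Usp18 have no window in the table. A match describes the letters and does not show binding.

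The 3 genes with the largest villus minus crypt difference among those that held the core are shown with their whole window, 5′ to 3′ on the gene's own strand, with the core in capitals. Ifit1 held 2 cores, whose first bases lay 104 and 85 bases before the start. Gbp2 held 1 core 59 bases before the start, and Ifih1 held 1 core that began at base 33 of the transcript.
Ifit1 (chr19:34640639-34640938, plus strand): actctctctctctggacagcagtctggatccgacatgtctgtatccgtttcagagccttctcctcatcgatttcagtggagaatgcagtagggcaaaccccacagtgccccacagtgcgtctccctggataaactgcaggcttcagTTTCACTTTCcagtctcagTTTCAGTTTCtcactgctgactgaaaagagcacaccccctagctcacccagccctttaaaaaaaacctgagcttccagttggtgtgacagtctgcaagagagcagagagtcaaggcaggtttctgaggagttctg
Gbp2 (chr3:142620413-142620712, plus strand): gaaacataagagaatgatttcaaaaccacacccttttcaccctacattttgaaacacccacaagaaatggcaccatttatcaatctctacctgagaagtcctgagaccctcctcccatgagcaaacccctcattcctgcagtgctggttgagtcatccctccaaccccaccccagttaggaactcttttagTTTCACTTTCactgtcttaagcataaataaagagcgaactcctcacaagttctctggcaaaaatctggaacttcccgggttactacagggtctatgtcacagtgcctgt
Ifih1 (chr2:62646206-62646505, minus strand): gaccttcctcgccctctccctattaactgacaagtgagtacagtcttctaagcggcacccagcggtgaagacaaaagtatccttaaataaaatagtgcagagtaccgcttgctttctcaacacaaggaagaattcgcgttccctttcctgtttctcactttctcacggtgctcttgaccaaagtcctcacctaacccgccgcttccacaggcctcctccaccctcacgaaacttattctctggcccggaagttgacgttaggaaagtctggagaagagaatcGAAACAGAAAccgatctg

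For the other genes that held the core, the stretch from the first to the last core is shown with 20 bases on each side. Among the regulators and the ubiquitin-like genes, these were Stat2, Socs1 and Isg15. The Isg15 stretch held 3 overlapping cores in a row, from 78 bases before the start.
Stat2 (chr10:128270256-128270305, plus strand): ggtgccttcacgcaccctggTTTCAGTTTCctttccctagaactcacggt
Socs1 (chr16:10785584-10785639, minus strand): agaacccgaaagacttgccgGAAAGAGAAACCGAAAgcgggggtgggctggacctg
Isg15 (chr4:156200855-156200916, minus strand): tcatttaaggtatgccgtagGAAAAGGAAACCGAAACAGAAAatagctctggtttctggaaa

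Among the genes of RNA cleavage, RNA sensing and translation block, the core stood in Oas1a, Oas3, Ddx58, Eif2ak2 and Ifit3. Ifit3 held 2 separate cores, 156 and 122 bases before the start, as Ifit1 of the same cluster on chromosome 19 did.
Oas1a (chr5:120907510-120907565, minus strand): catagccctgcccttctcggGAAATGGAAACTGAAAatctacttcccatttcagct
Oas3 (chr5:120777705-120777754, minus strand): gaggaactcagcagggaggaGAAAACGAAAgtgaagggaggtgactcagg
Ddx58 (chr4:40239794-40239843, minus strand): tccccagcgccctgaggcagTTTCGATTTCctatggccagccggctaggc
Eif2ak2 (chr17:78882525-78882574, minus strand): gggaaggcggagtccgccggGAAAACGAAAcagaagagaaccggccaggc
Ifit3 (chr19:34583353-34583436, plus strand): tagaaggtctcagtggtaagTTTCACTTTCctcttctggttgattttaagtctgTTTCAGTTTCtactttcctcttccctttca

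Among the GTPases, antiviral effectors and chemokines, the core stood in Gbp3, Igtp, Irgm1, Tgtp1, Rsad2, Bst2 and Cxcl10. The Gbp3, Irgm1 and Bst2 stretches each held 2 overlapping cores, as those of Socs1 and Oas1a did.
Gbp3 (chr3:142559979-142560034, plus strand): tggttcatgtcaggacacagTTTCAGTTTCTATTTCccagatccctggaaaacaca
Igtp (chr11:58199502-58199551, plus strand): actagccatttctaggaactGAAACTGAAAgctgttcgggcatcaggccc
Irgm1 (chr11:48871415-48871470, minus strand): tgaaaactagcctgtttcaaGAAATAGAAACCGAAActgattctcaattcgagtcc
Tgtp1 (chr11:48992294-48992343, minus strand): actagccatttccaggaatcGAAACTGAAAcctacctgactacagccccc
Rsad2 (chr12:26456543-26456592, minus strand): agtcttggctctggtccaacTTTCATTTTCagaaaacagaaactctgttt
Bst2 (chr8:71537567-71537622, minus strand): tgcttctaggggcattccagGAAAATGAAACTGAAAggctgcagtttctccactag
Cxcl10 (chr5:92349073-92349122, minus strand): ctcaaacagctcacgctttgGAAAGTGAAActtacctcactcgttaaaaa

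The differences between villi and crypts spanned overlapping ranges in genes with and without the core in this window. Among the 15 measured genes that held it, the villus minus crypt difference ran from 0.05 to 3.69 with a median of 1.17. Among the 13 measured genes whose window lacked it, the difference ran from -0.40 to 3.88 with a median of 1.25. Oasl2, Ubd, Oasl1 and Irf7, which had 4 of the 5 largest differences, were in the second set. A STAT dimer site, searched as TTCNNNGAA (the same on both strands), occurred in the windows of 10 of the 33 genes (30.3%), against 9.55% of all genes with a window (8.30% of windows).

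**Figure D2:**
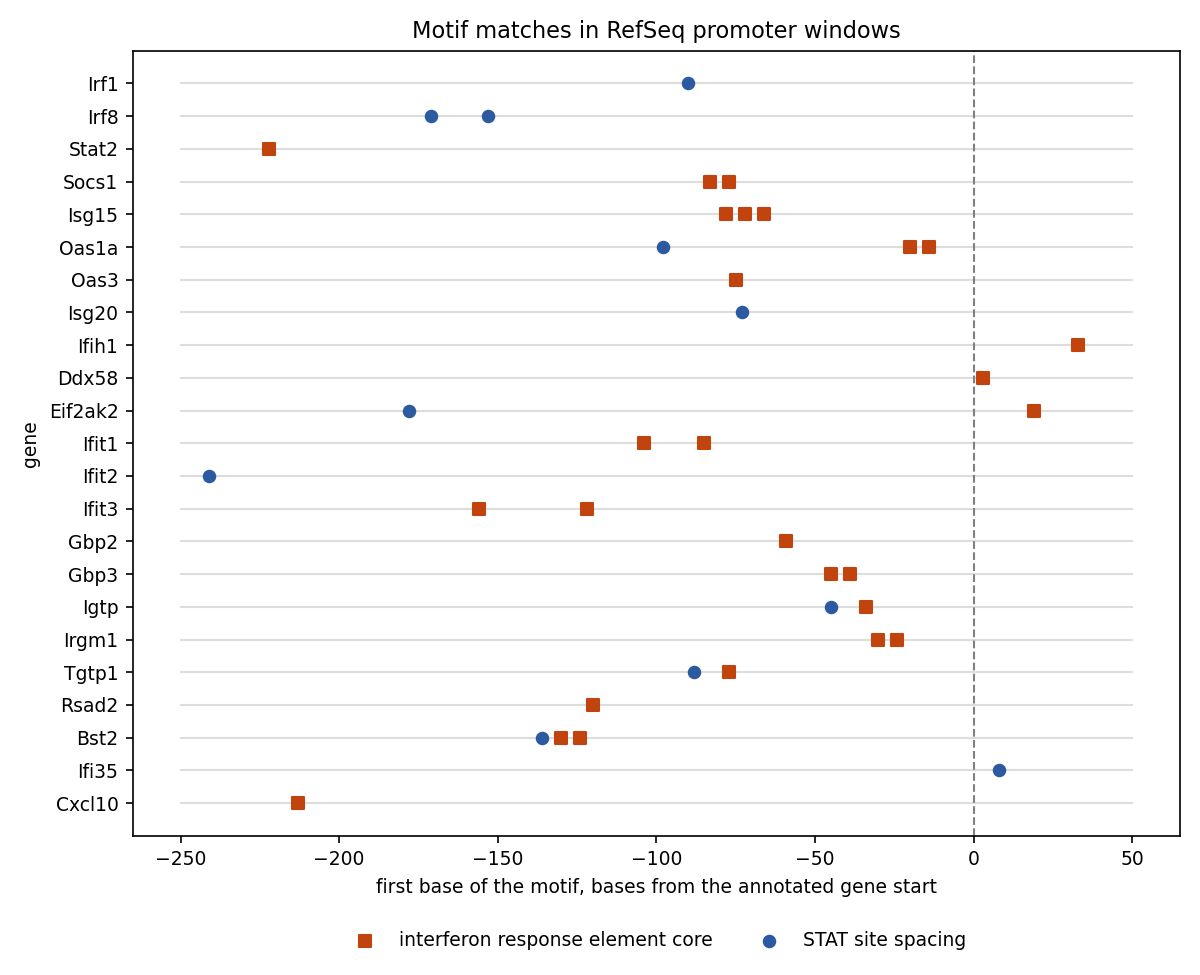
Each row is a gene of the family whose RefSeq promoter window held a motif, and the x axis gives the first base of each match in bases from the annotated gene start. Squares mark the core of the interferon-stimulated response element in 18 genes and circles the STAT dimer site in 10 genes, and most squares lie within the 250 bases before the start, with Ifih1, Ddx58 and Eif2ak2 after it.

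Of the 6 regulators, Irf7, Irf1 and Stat2 had villus arrays above all crypt arrays, as 22.2% of all measured genes did. Counts by role group here and below rest on the values taken to have chosen the genes, so nothing is read from them. Irf7, the factor that amplifies type I interferon production, had 10.02, 11.49 and 10.74 in villi 12, 41 and V275, against 7.44, 7.94 and 7.85 in crypts 12, 21 and 41, a difference of 3.01. The lowest villus array lay more than 4-fold above the highest crypt array. Irf1, a factor induced strongly by interferon gamma, had 10.40, 11.55 and 10.73 in villi and 9.68, 9.81 and 10.04 in crypts, a difference of 1.05. Stat2, which acts in the interferon-activated complex with IRF9, had 7.59, 8.45 and 7.56 in villi and 6.92, 7.37 and 7.28 in crypts, with villus 41 apart from the other villi. Irf8 (0.58), Irf9 (0.18) and the feedback inhibitor Socs1 (0.05) had arrays that overlapped between villi and crypts.

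The ubiquitin-like genes and their enzymes were higher in villi without overlap in all 3 measured members, against 22.2% of all measured genes. Ubd, which encodes the ubiquitin-like protein FAT10, had 6.65, 10.79 and 10.10 in villi and 5.43, 5.59 and 5.23 in crypts, a difference of 3.76. Villus 12 lay about 10-fold or more below the other villi, and the crypts lay under the 30th percentile, so the size of the difference is not exact. Usp18, the protease that removes ISG15 and dampens interferon signalling, had 6.51, 9.04 and 8.34 in villi and 6.01, 6.01 and 5.98 in crypts, a difference of 1.97 that was again small in villus 12. Trim25, a ubiquitin ligase that activates the RNA sensor RIG-I, had 10.69, 11.43 and 10.51 in villi and 9.09, 9.07 and 9.20 in crypts, a difference of 1.75. The SD was 0.49 in villi and 0.07 in crypts, and its other probe sets gave 1.82 and 2.11.

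The 2′-5′ oligoadenylate synthetase family makes the messenger that activates RNase L, which cleaves viral RNA. Oasl2, a member of the family, had 8.26, 11.07 and 10.11 in villi and 5.25, 6.00 and 6.55 in crypts, with the largest measured difference of the 35 genes at 3.88. Its neighbour Oasl1, which restrains Irf7 translation in mice, had 10.52, 12.37 and 10.90 in villi and 7.83, 7.94 and 7.87 in crypts, a difference of 3.38. The Oasl1 crypt arrays lay within 0.11 of each other while the villi spread widely. Oas3 had 7.87, 9.67 and 9.18 in villi and 7.13, 6.98 and 7.07 in crypts, a difference of 1.85. Oas1a was 1.65 higher in villi without overlap, Oas2 was 0.41 higher with overlap, and the exonuclease gene Isg20 was the only one of the 35 with a negative difference, -0.40 with overlap.

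Among genes that sense viral RNA or block its translation, Ifit1 and Ifih1 stood furthest apart. Ifit1, which binds viral RNA that lacks the host cap methylation, had 7.52, 10.35 and 10.07 in villi and 5.46, 5.63 and 5.77 in crypts, a difference of 3.69 with the crypts under the 30th percentile. Ifih1, which encodes the cytosolic RNA sensor MDA5, had 9.61, 10.37 and 10.00 in villi and 7.56, 7.93 and 8.09 in crypts, a difference of 2.14, and its villi agreed more closely with each other. Zbp1, a sensor of Z-form nucleic acid, had 7.53, 9.72 and 9.50 in villi and 7.05, 7.29 and 7.62 in crypts, and villus 12 fell among the crypts. Ifit3 was 1.17 higher and Eif2ak2, the kinase PKR, 0.23 higher without overlap. Ifit2, next to Ifit3 on chromosome 19, was near background in villi and crypts alike, with a difference of 0.14.

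Of the interferon-induced GTPases, the Gbp and immunity-related families attack the vacuoles that enclose intracellular pathogens. The Mx family is known for restricting viruses, and whether its proteins work in these mice was not tested. Of the 8 measured genes 3 were higher in villi without overlap, against 22.2% of all measured genes. Gbp2 had 5.67, 9.19 and 7.05 in villi and 4.94, 5.13 and 4.92 in crypts, a difference of 2.31. The crypts and villus 12 lay under the 30th percentile and villus 41 carried most of the difference. Igtp, an immunity-related GTPase, had 8.54, 10.57 and 10.64 in villi and 7.39, 8.81 and 8.83 in crypts, with villus 12 below 2 of the crypts. Ifi47 had 9.09, 10.71 and 10.05 in villi and 8.33, 8.84 and 8.94 in crypts, a difference of 1.25. Mx1 was also higher without overlap (0.81), near background in crypts, while Gbp3 (0.36), Irgm1 (0.17), Mx2 (0.17) and Iigp1 (0.12) overlapped. Iigp1 had 6.06, 9.06 and 7.27 in villi, so that the villus arrays lay on both sides of the crypts.

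The other antiviral effectors were higher in villi without overlap in 3 of 4 measured members, against 22.2% of all measured genes. Parp14, an ADP-ribosyltransferase, had 9.80, 10.41 and 9.79 in villi and 6.99, 7.67 and 8.46 in crypts, a difference of 2.29 in which the crypts were the more spread group. Rsad2, which encodes viperin, had 8.07, 9.81 and 8.42 in villi and 6.95, 6.61 and 6.56 in crypts, a difference of 2.06, and its dimmer probe sets gave 1.93 and 0.68. Ifi35 had 9.62, 9.93 and 10.26 in villi and 7.72, 8.18 and 8.46 in crypts, a difference of 1.81, with villus V275 and not villus 41 the highest. Bst2, the virus tether tetherin, had 6.47, 7.08 and 7.32 in villi and 6.54, 6.81 and 7.04 in crypts and did not separate the groups. The T cell attracting chemokine genes did not separate them either: Cxcl9 had 6.25, 7.08 and 6.61 in villi and 6.34, 6.00 and 6.16 in crypts, and Cxcl10 had 6.41, 6.17 and 6.42 in villi and 6.02, 6.28 and 6.12 in crypts.

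The villus samples differed among themselves in a way most of these genes shared. Villus 41 was the highest villus array for 28 of the 35 genes, against 31.8% of all measured genes, and villus 12 was the lowest for 28 of the 35, against 32.6% of all genes. The median SD of the 35 genes was 0.52 in villi and 0.21 in crypts (n = 3 each), against 0.17 and 0.18 over all genes. The mean log2 signal over the 35 genes was 7.68, 8.96 and 8.46 in villi 12, 41 and V275, against 6.86, 7.10 and 7.16 in crypts 12, 21 and 41, so that every villus mean lay above every crypt mean. Without villus replicate 12 the arrays of 28 genes did not overlap, and the median difference was 1.47. Without villus replicate 41 the arrays of 21 genes did not overlap, and the median difference was 0.87. Leaving out an array can only keep or raise a count of genes without overlap, so nothing is read from the counts of 28 and 21.

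Markers of T cells, which lie between the cells of the villus epithelium, moved with the villus samples too. Of these markers 13 were tested, and of all tested genes 16.9% were called higher in villi and 15.0% lower. Of 15 measured T cell and intraepithelial lymphocyte markers, 11 were called higher in villi and 0 lower, with the largest differences in the granzyme gene Gzma (4.35 ± 0.31, SE) and the chemokine gene Ccl5 (3.58 ± 0.33, SE). Their mean log2 signal was 7.81, 8.02 and 8.59 in villi 12, 41 and V275, and 6.56, 6.40 and 6.35 in crypts 12, 21 and 41. The order of the villi matched that of the interferon-stimulated genes only in part. V275 was highest for 13 of the 15 T cell markers and villus 41 for 1. Villus 12 was lowest for 11 of the 15, as it was for 28 of the 35 interferon-stimulated genes, against 32.6% of all measured genes. Of the defining genes, crypts had Cd3g and Cd8b1 below the 30th percentile, and both groups had Cd2 below it, while Cd3e averaged 8.72 in villi and 8.09 in crypts. Of 6 pan-leukocyte markers 2 were called higher in villi (Ptprc and Rac2), with list means of 7.26 to 8.03 in villi and 6.51 to 7.19 in crypts. Of 12 myeloid markers 8 were tested, and 1 was called higher and 1 lower. Of 7 B and plasma cell markers 5 were tested, and 0 were called higher and 2 lower. The part of these cells in the villus values of the interferon-stimulated genes was not tested.

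**Figure D3:**
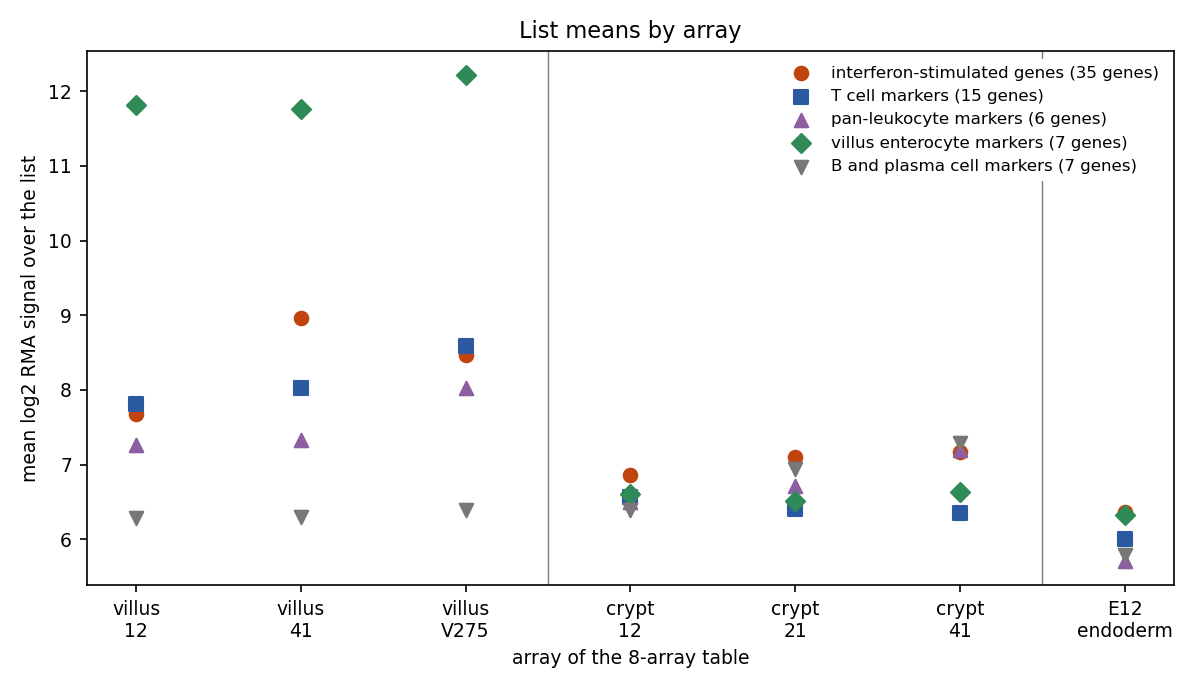
The y axis gives the mean log2 RMA signal over a gene list and the x axis the villus arrays, the crypt arrays and the E12 endoderm pool of the 8-array table, with 1 mark per list and array. The interferon-stimulated genes were highest in villus 41 (8.96) and the T cell markers in villus V275 (8.59). Among the villi both lists were lowest in villus 12 (7.68 and 7.81). The B and plasma cell markers were no higher in villi (6.28 to 6.39) than in crypts (6.39 to 7.29).

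Upstream of these genes, interferon receptors and their kinases were also higher in villi, while none of the 4 interferon genes bright enough to test was called. Of 13 measured receptor and JAK-STAT genes, all tested, 9 were called higher and 0 lower. Over all tested genes 16.9% were called higher and 15.0% lower. The 9 were led by the kinase gene Jak2 (2.08 ± 0.34, SE) and the interferon gamma receptor gene Ifngr2 (1.80 ± 0.24). The 9 included Ifnar1, Ifngr1 and Il10rb, the last of which encodes a chain of the interferon lambda receptor, and without crypt replicate 12 the count was 5. Of 9 measured interferon genes 4 passed the filter on dim genes, and limma called 0 in either direction, also at an unadjusted p under 0.05. With no filter it called 2 higher. All 9 interferon genes had a positive difference, and 5 had villus arrays above all crypt arrays, where 22.2% of all measured genes did. The list mean was 5.69 to 5.79 in villi and 5.39 to 5.55 in crypts, near or under the 30th percentile of the table (5.78). The largest difference was 0.71 in Ifna5, near background in both groups. Of 14 genes that sense nucleic acid upstream of interferon, 13 were tested. Of these 2 were called higher and 1 lower, no larger a share than over all genes. The largest changes were in the kinase genes Tbk1 (1.99 ± 0.18) and Irak1 (-1.55 ± 0.16). The count of 2 became 1 when villus replicate V275 or crypt replicate 12 or 21 was left out.

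Of 33 further interferon-stimulated genes outside the family chosen here 28 were tested, and 11 were called higher in villi and 2 lower. Over all tested genes 16.9% were called higher and 15.0% lower. The largest changes were in Parp12 (3.34 ± 0.35, SE), an ADP-ribosyltransferase gene, and Ifitm2 (-3.21 ± 0.33), a gene for a membrane protein that blocks virus entry. Ifitm2 averaged 6.78 ± 0.73 in villi and 9.99 ± 0.12 in crypts (SD, n = 3 each). Its relative Ifitm3 was lower in villi as well, by -2.69 ± 0.40. The count of 11 was 7 without crypt replicate 12 or villus replicate V275 and 5 without crypt replicate 21. These lists also rest on the villus and crypt arrays that were known when the family was chosen.

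In the embryo, some genes of the family were higher in endoderm and others in mesenchyme, as was the case for genes at large. Of the 35 genes 19 were tested between E12 endoderm and E12 mesenchyme, and 7 were called higher in endoderm and 4 lower, while 27.7% of all tested genes were called higher, 25.4% lower and 53.1% in either direction. The 11 calls among 19 genes are near that background, so the count is no result about the family, and the p-values below carry the doubt about how the genes were chosen. The median endoderm minus mesenchyme difference was 0.06 on the log2 scale for the 35 genes and 0.04 over all genes. The other 16 of the 35 genes did not pass the filter on dim signals, and 8 were tested and not called. All 11 called genes had the same sign in the pair of 35-fetus pools of the other table, where Ifi35 differed by -0.01 only.

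The largest endoderm excess lay in Ifit genes of a cluster on chromosome 19. Ifit1 had 7.20, 8.0 and 6.98 in endoderm replicates 2, 3 and 4, against 4.02, 3.85 and 3.84 in mesenchyme replicates 2, 3 and 4, a difference of 3.49 ± 0.24 (SE; limma adjusted p = 4.9e-06). The mesenchyme values lay under the 30th percentile of the table (4.74), so the size is not exact. Ifit2, which like Ifit1 holds back translation of viral RNA, had 8.93, 8.72 and 8.76 in endoderm and 6.39, 6.30 and 6.25 in mesenchyme, a difference of 2.49 ± 0.09 (SE; limma adjusted p = 1.5e-07). Every endoderm pool lay over 4-fold above every mesenchyme pool, and in the pair of 35-fetus pools Ifit2 stood at 7.26 in endoderm and 5.81 in mesenchyme. Ifit3, which lies between them, was under the 30th percentile on average in both layers and was not tested (0.22).

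Trim25 and 4 further genes were higher in endoderm. Trim25 had 9.75, 9.19 and 9.17 in endoderm and 8.0, 7.52 and 7.53 in mesenchyme, a difference of 1.69 ± 0.19 (SE; limma adjusted p = 0.00012), and its other probe sets gave 1.75 and 0.67. Isg20 had 5.13, 5.78 and 5.28 in endoderm and 4.30, 4.57 and 4.66 in mesenchyme, a difference of 0.89 ± 0.18 (limma adjusted p = 0.0031), with the mesenchyme under the 30th percentile. The groups of both genes stood apart on all arrays. Oas1a had 7.17, 7.03 and 6.96 in endoderm and 6.26, 6.07 and 6.37 in mesenchyme, a difference of 0.82 ± 0.11 (limma adjusted p = 0.00030). Ifih1 had 5.94, 5.96 and 5.77 in endoderm and 5.20, 5.04 and 5.20 in mesenchyme, a difference of 0.74 ± 0.10 (limma adjusted p = 0.00026). Irgm1, a regulator of the other immunity-related GTPases, had 6.47, 5.96 and 5.99 in endoderm and 5.18, 5.34 and 5.67 in mesenchyme, a difference of 0.74 ± 0.17 (limma adjusted p = 0.0069). For these 3 genes the groups again did not overlap, at differences of less than 2-fold.

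The 4 genes called lower in endoderm were Bst2, Ifi35, Igtp and Rsad2. Bst2 had 5.34, 5.36 and 5.03 in endoderm and 6.67, 6.52 and 6.67 in mesenchyme, a difference of -1.38 ± 0.11 (SE; limma adjusted p = 1.7e-05). Ifi35 had 5.44, 5.52 and 5.38 in endoderm and 6.11, 6.47 and 6.13 in mesenchyme, a difference of -0.79 ± 0.12 (limma adjusted p = 0.00059). Igtp had 6.18, 6.05 and 6.14 in endoderm and 6.82, 6.82 and 7.0 in mesenchyme, a difference of -0.76 ± 0.09 (limma adjusted p = 0.00019). For these 3 genes, and for Rsad2, every endoderm pool lay below every mesenchyme pool. Rsad2 had 5.46, 5.10 and 5.40 in endoderm and 6.05, 5.58 and 5.94 in mesenchyme, a difference of -0.54 ± 0.15 (limma adjusted p = 0.016). The Rsad2 call was lost without mesenchyme replicate 2 (adjusted p = 0.059) or 4 (adjusted p = 0.061) and when the median of its probe sets was taken, where it failed the filter and has no p. Over the 13 settings that tested it, the adjusted p ran between 0.0025 and 0.061.

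**Figure D4:**
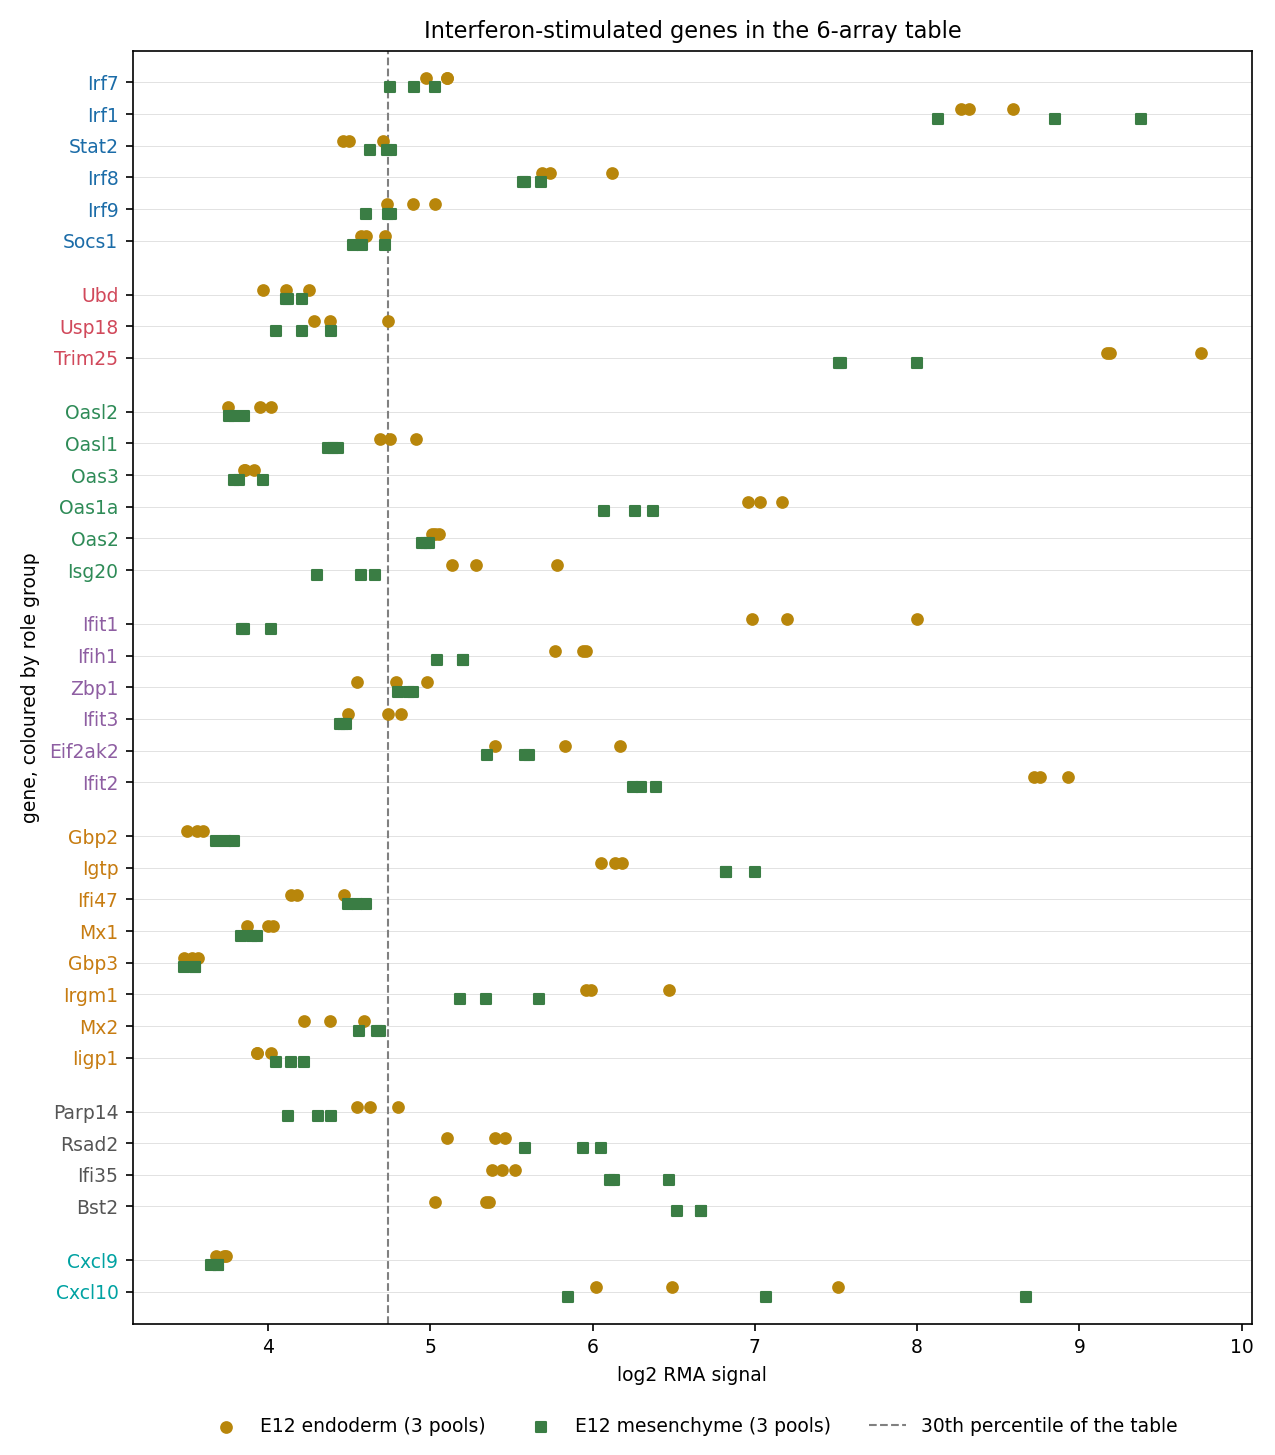
Each row is a gene, coloured by its role group, and each mark is the log2 RMA signal of 1 array of the 6-array table, with circles for the 3 E12 endoderm pools, squares for the 3 E12 mesenchyme pools and a dashed line at the 30th percentile of the table (4.74). Ifit1, Ifit2 and Trim25 show the widest gaps with endoderm to the right, Bst2 the widest with mesenchyme to the right, and 15 genes lie left of the line in both layers on average.

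The 8 genes tested and not called were Irf1, Irf7, Irf8, Irf9, Oas2, Zbp1, Eif2ak2 and Cxcl10. Cxcl10 had 6.02, 7.51 and 6.49 in endoderm and 5.85, 8.67 and 7.07 in mesenchyme, a spread within each layer that exceeded the difference of -0.52 between them. Irf1 had 8.59, 8.27 and 8.32 in endoderm and 8.13, 9.38 and 8.85 in mesenchyme and was called lower without mesenchyme replicate 2 (-0.72, limma adjusted p = 0.016). Eif2ak2 had 5.40, 5.83 and 6.17 in endoderm and 5.58, 5.35 and 5.61 in mesenchyme and was called higher without endoderm replicate 2 (0.49, limma adjusted p = 0.017) and when its probe sets were summarised by their median (0.48, limma adjusted p = 0.012). Its other probe set gave 0.67. Ubd and Oasl2, both prominent in adult villi, stayed near background in both layers, with Ubd at 4.25, 3.97 and 4.11 in endoderm and 4.21, 4.12 and 4.11 in mesenchyme.

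The adult and embryonic comparisons rest on different arrays, in tables that were normalized apart. A gene's differences in them are listed together for their sign, and their sizes are not compared between the tables. Ifit1 had 3.69 for villus minus crypt and 3.49 for endoderm minus mesenchyme. The crypt and mesenchyme values of Ifit1 lay near background, so neither size is exact. Trim25 had 1.75 and 1.69, Ifih1 2.14 and 0.74, and Oas1a 1.65 and 0.82. Ifit2 had 0.14 between adult compartments and 2.49 between the embryonic layers, and Oasl2 had 3.88 and 0.11. Ifi35, Igtp and Rsad2 had positive differences in adults (1.81, 1.57 and 2.06) and negative ones in the embryo. The single embryonic pair normalized with the adult arrays gave endoderm minus mesenchyme differences of 1.82 for Ifit1, 1.45 for Ifit2 and 1.40 for Trim25. It gave 0.83 for Ifih1, 0.82 for Oas1a and 0.13 for Oasl2. For Ifi35, Igtp and Rsad2 it gave -0.01, -0.39 and -0.17.

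**Figure D5:**
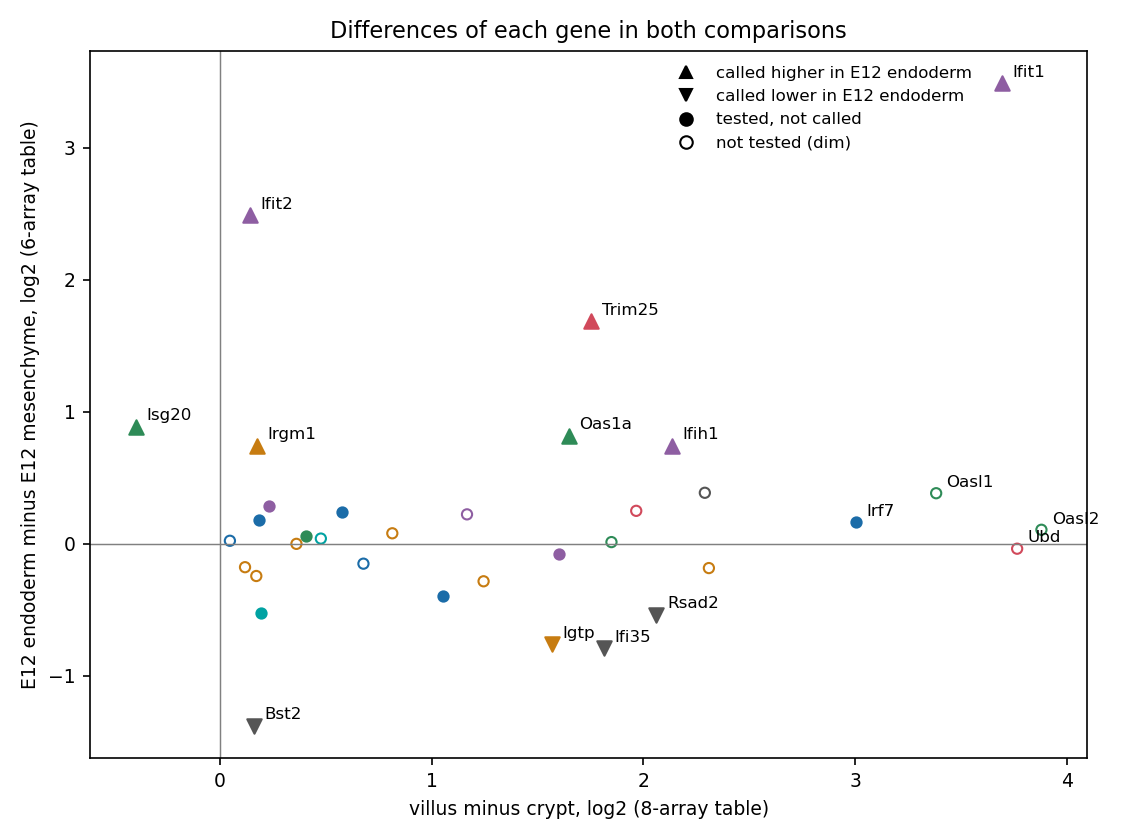
Each mark is a gene, coloured by role group, with its villus minus crypt log2 difference from the 8-array table on the x axis and its E12 endoderm minus E12 mesenchyme log2 difference from the 6-array table on the y axis, where triangles were called between the E12 layers, filled circles were tested and not called, and open circles were too dim to test. Ifit1 (3.69, 3.49) stands at the upper right and Ifit2 (0.14, 2.49) at the upper left, and Oasl2, Ubd, Oasl1 and Irf7 lie far right with embryonic differences between -0.04 and 0.38. The tables were normalized apart, so sizes are not compared between the axes.

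Other genes of the pathway were called in both directions between the embryonic layers, where 53.1% of all tested genes were called. Of 13 receptor and JAK-STAT genes, all tested, 5 were called higher in endoderm and 6 lower. Socs3, a feedback inhibitor of JAK signalling, averaged 6.25 ± 0.43 in endoderm and 9.24 ± 0.76 in mesenchyme (SD, n = 3 each), a difference of -2.99 ± 0.36 (SE; limma adjusted p = 0.00018). Stat3 differed by -1.48 ± 0.17 (limma adjusted p = 0.00012). The 5 higher calls became 2 to 3 without mesenchyme replicate 2, 3 or 4, without endoderm replicate 3 or 4, and with the replicate number as a block. Of 14 sensing genes 9 were tested, and 4 were called higher and 1 lower, near the share over all genes, with the largest changes in Sting1, an adaptor for cytosolic DNA sensing (-0.85 ± 0.11; limma adjusted p = 0.00022), and in Tbk1 (0.78 ± 0.14; limma adjusted p = 0.0015). The 4 became 2 without mesenchyme replicate 2 or 4. Of 9 interferon genes 2 passed the filter, and limma called 0 in either direction, also at an unadjusted p under 0.05. The largest difference was 0.23 in Ifnb1.

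Among the 33 further interferon-stimulated genes 20 were tested, and 7 were called higher in E12 endoderm and 6 lower. Over all tested genes 27.7% were called higher and 25.4% lower, so the counts of 7 and 6 are no result about these genes. The membrane protein genes Ifitm3 and Ifitm1 had the largest differences. Ifitm3 averaged 5.31 ± 0.24 in endoderm and 10.61 ± 0.12 in mesenchyme (SD, n = 3 each), a difference of -5.31 ± 0.13 (SE; limma adjusted p = 2.2e-08). Ifitm1 averaged 6.71 ± 0.10 in endoderm and 11.60 ± 0.12 in mesenchyme, a difference of -4.89 ± 0.10 (limma adjusted p = 1.2e-08).

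Most blood cell markers called between the layers were lower in endoderm. Of the myeloid markers 8 were tested and of the pan-leukocyte markers 4. Of all tested genes 25.4% were called lower in endoderm and 27.7% higher. Of 12 myeloid and dendritic cell markers, 6 were called lower in endoderm and 0 higher, led by the macrophage receptor gene Csf1r (-2.86 ± 0.18, SE; limma adjusted p = 2.6e-06), and the list mean was 4.55 to 4.57 in endoderm and 5.16 to 5.29 in mesenchyme. Of 6 pan-leukocyte markers 2 were called lower, with list means of 4.50 to 4.66 in endoderm and 5.23 to 5.28 in mesenchyme. Of 7 measured B and plasma cell markers 1 was tested and was called higher in endoderm, and the others were too dim to test. The list means of the 7 markers were 4.57 to 4.71 in endoderm and 3.93 to 4.06 in mesenchyme. All lay under the 30th percentile of the table (4.74), so 1 gene alone carries the higher call. Of 15 T cell markers 6 were tested and 1 was called, Cd3d (0.35, limma adjusted p = 0.026), and that call was lost without mesenchyme replicate 3 or 4. The part of these cells in the lower endoderm values of Bst2, Ifi35, Igtp and Rsad2 was not tested.

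Adult epithelium was set against E12 endoderm in the 8-array table, where the endoderm is the single pool of 35 fetuses and is assumed to vary like the other groups. Villi and crypts share this pool, and both had served in the choice of the genes, so the counts are descriptive. In each comparison 31 of the 35 genes were tested. In villi, 24 of the 35 genes were called higher than in E12 endoderm and 0 lower, where 17.0% of all tested genes were called higher and 22.1% lower, and the median difference was 2.22 against 0.13 over all genes. In crypts, 5 of the 35 were called higher and 0 lower, where 8.20% of all tested genes were called higher and 15.1% lower, and the median difference was 0.60 against 0.08. At an unadjusted p under 0.05, limma found 0 lower in villi and 1 lower in crypts, Cxcl10. Of the 15 T cell markers 13 were tested. Of these markers 11 were called higher in villi than in the pool and 0 in crypts, and their part in the villus values was not tested. The count in villi was 16 without crypt replicate 21. The count of 5 in crypts was 2 without crypt replicate 21 and 3 without crypt replicate 41 or villus replicate V275. Over all genes, 35.2% of the calls for crypts against E12 endoderm were higher, and 46.4% after quantile normalization.

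The 5 genes called in crypts were Irf8, Ifi47, Parp14, Ifi35 and Irf1. Irf8, a factor best known from myeloid and B cells, had 9.28, 10.37 and 9.81 in villi and 9.05, 9.14 and 9.54 in crypts, against 6.46 in the E12 endoderm pool. All 6 adult arrays lay more than 4-fold above the pool. Of 7 B and plasma cell markers 5 were tested against the pool, of 12 myeloid markers 8 and of 6 pan-leukocyte markers 6. In crypts 2, 2 and 1 of these were called higher, where 8.20% of all tested genes were. The part of these cells in the Irf8 values was not tested. Ifi47 had 6.49 in the E12 endoderm pool and was 2.21 ± 0.55 (SE) higher in crypts and 3.46 ± 0.55 higher in villi. Large villus differences from the pool were those of Oasl2 (4.78 ± 0.94), Ubd (4.34 ± 1.32) and Parp14 (4.12 ± 0.51), but Oasl2 and Ubd lay under the 30th percentile in the pool, so the size of their differences is not exact and they are not ranked.

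Ifit2 ran the other way. It had 4.69, 5.28 and 4.94 in villi and 5.16, 4.55 and 4.79 in crypts, against 7.26 in the E12 endoderm pool, with differences of -2.29 for villi and -2.43 for crypts, and every adult array lay near background. The filter on dim genes removed it from these tests, and with no filter 1 of the 35 genes was called lower in each comparison. Ifit1 had 6.81 in the pool, above the crypts by a difference of -1.19 ± 0.94 (SE) and below the villi by 2.51 ± 0.94, and neither difference was called. Cxcl10, at 6.73 in the pool, was the third gene with a lower value in crypts (-0.59 ± 0.21) and was not called.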

How the data were processed

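The authors deposited 2 tables of log2 RMA signals from single-colour Affymetrix arrays, per the labels. RMA comes from the submitters' processing notes; its version is not given in the sources used here. Genes and lists were chosen with earlier results of these data known, and the probe set annotation gave 1 symbol to 20393 of 22690 probe sets, several to 691 and none to 1606. Of several probe sets for a gene, the one with the highest mean over the arrays compared was used, which for Irf8, Stat2 and Zbp1 differed between the tables. Levels are not compared across tables.

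Differences were tested within a table with limma 3.58.1 in R 4.3.3 on genes above the table's 30th percentile in at least 3 arrays, with Benjamini-Hochberg adjustment over all tested genes and a threshold of 0.05. An SE is limma's and an SD that of the replicates. The fit was tested on simulated data with 200 changed genes. The number of arrays limits the precision. No array pair repeated another (at most 670 of 22690 values were identical). The deviations of same-numbered E12 pools correlated at 0.21, 0.23 and 0.11 over genes, and those of unlike number at -0.30 to 0.13. The replicate number may pair them, but the pairing is not established. The fit with the number as a block is given where it changes a result. Genes named outside the family were, in each list, the called genes with the largest changes, or others chosen after their values were seen. Alternatives were quantile normalization, no filter, the median of probe sets, no s_at or x_at probe sets, a trended robust prior, the replicate block, leaving out each sample, and all 8 E12 arrays with the table as a block. Near-identical paralogs in the Oas, Ifit and Gbp families may share probe signal, which was not tested.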

Additional observations from a re-analysis of the deposited data

How the results depend on the processing

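No called result changed direction under the alternatives run. With a replicate block, the villus and crypt fit called 1260 genes against 3183 without it, 10 of the 35 interferon-stimulated genes against 16, and 66.3% of its calls were higher against 53.0%. Villi and crypts share only the numbers 12 and 41, whose samples correlated at 0.16 and 0.07, so the pairing is not established there either. Leaving out 1 sample gave 1975 to 3143 genes and 10 to 21 of the 35 higher in villi. For crypts against E12 endoderm it gave 1358 to 2971 genes against 2348, 2 to 7 of the 35 higher against 5, and 0 to 1 lower; the count was 1 without villus replicate 12 and with no filter. For villi against E12 endoderm it gave 16 to 27 higher against 24, and with no filter 1 gene was called lower. Between the E12 layers it gave 7 to 8 higher and 3 to 4 lower, the block changed no call among the 35 genes, and the 8 arrays with the table as a block gave 9 and 4. Single calls that changed were those of Rsad2, Irf1 and Eif2ak2 given above, of Oasl1 (0.38, adjusted p = 0.0075) and Parp14 (0.39, adjusted p = 0.018) with no filter, and of Irf8 (adjusted p = 0.042) and Oasl1 (adjusted p = 0.0025) with all 8 arrays. Over the alternatives that tested them, the limma adjusted p ran between 0.016 and 0.75 for Irf1, 0.012 and 0.64 for Eif2ak2, and 0.042 and 0.31 for Irf8. The cause of these changes was not tested, apart from the smaller number of samples when 1 is left out. Signals near background, such as those of Ubd, Ifit1 and Gbp2 in crypts, limit how exactly a difference is known. A signal somewhat above the 30th percentile of the 8-array table (5.78) may be near background too. For E12 endoderm, Oas3 and Ifi47 averaged 3.87 and 4.26 in the 6-array table, under its 30th percentile (4.74). The pool of 35 fetuses had 6.36 and 6.49 for them, above that of the 8-array table.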
